A study of Mus musculus and Rattus norvegicus with 12 samples.

Results

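Messenger RNA levels of 10 Polycomb genes were followed across 12 cell lines of the early embryo. Ezh2, Ezh1, Eed and Suz12 form the core of Polycomb repressive complex 2 (PRC2), and Jarid2, Mtf2 and Phf19 are its accessory subunits. Cbx7, Bmi1 and Rnf2 belong to Polycomb repressive complex 1 (PRC1). The genes were taken by symbol from the count tables, where all 10 were found among 24411 mouse symbols and 8 among 17315 rat symbols. Rat Suz12 and Jarid2 were not analysed here. The rat XENP lines were CX1 (male) and MAX8 (female) of the WKY strain and MAX2 (female) and MAX3 (male) of the F344 strain. The pXEN group held the mouse lines pXEN2, pXEN4 and pXEN6, cultured like the rat cells, and the XEN group held XEN1, XEN2 and XEN5, cultured on mouse embryo fibroblasts in 20% serum. The ES group held ES2 and ES3, cultured in 15% serum with LIF and the kinase inhibitor mix 2i. All 8 mouse lines were of the ICR strain, with male lines pXEN2, XEN2, XEN5 and ES2 and female lines pXEN4, pXEN6, XEN1 and ES3. Passages were 17 to 21 in pXEN, 9 to 10 in XEN1, 19 to 21 in XEN2 and XEN5, and 14 to 16 in ES. They were 38 to 40 in CX1 and 10 to 17 in the MAX lines, and the part of passage in the values was not tested. Every sample was a line of its own, with blastocyst as the source, taken after 2 days of culture, so cell type and culture medium differed together between the mouse groups, and the spread within a group is the spread between lines.

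Polycomb complexes keep developmental genes silent. PRC2 methylates lysine 27 of histone H3 through Ezh2 or its relative Ezh1, and it needs Eed, which reads the mark, and Suz12, the scaffold, to be active. Accessory subunits steer it to CpG-rich DNA: Mtf2 and Phf19 belong to the Polycomb-like form of PRC2 and Jarid2 to another form. PRC1 ubiquitinates histone H2A through Rnf2 (Ring1B), which pairs with a PCGF protein such as Bmi1, and its Cbx subunits, Cbx7 being the main one known in ES cells, bind methylated H3. Mouse ES cells are the system in which both complexes have been studied most, and XEN cells are self-renewing cells of primitive endoderm, the lineage of the yolk sac.

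The mouse lines had 2661691 to 3483069 counts on genes and the rat lines 1047535 to 1242937. Levels are counts per 1000000 gene counts (CPM), scaled between the mouse lines by TMM, a method that assumes that most genes keep their level. Defining markers matched the labels: the summed level of 14 primitive endoderm genes was 11900 to 18900 CPM for pXEN, 9560 to 26000 for XEN and 93.8 to 170 for ES. That of 16 pluripotency genes was 260 to 331 CPM for pXEN, 221 to 333 for XEN and 5430 to 5610 for ES. The 12 endoderm genes measured in rat summed to 20400 to 39800 CPM in XENP. Of 20 fibroblast genes, which mark feeder cells, 2 were at 0 in each XEN line and their sum was 763 to 1010 CPM. It was 15.2 to 21.9 CPM with 13 to 16 genes at 0 in pXEN and 12.5 to 16.0 CPM with 10 to 13 at 0 in ES. The pXEN lines had at most 4.59 CPM of trophoblast markers, the XEN lines 2.73 and the ES lines 29.2.

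In pXEN lines 5 of the 10 genes, Eed, Suz12, Jarid2, Mtf2 and Phf19, were lower than in ES and 1, Bmi1, was higher, at an adjusted p under 0.05 (edgeR, quasi-likelihood, Benjamini-Hochberg over all genes). Of all 10895 genes tested, 17.8% were lower, 18.2% higher and 35.9% either in that comparison. In XEN lines 5 genes, again Eed, Suz12, Jarid2, Mtf2 and Phf19, were lower than in ES and Bmi1 was higher, where 17.8% of all genes were lower, 20.7% higher and 38.4% either. By line, 6 genes were lower and 2 higher in pXEN than in ES with no overlap between the groups, as were 32.6% and 30.2% of all genes (62.8% in either direction). In XEN 6 were lower and 1 higher without overlap, as were 31.7% and 31.6% of all genes (63.3% in either direction). The median log2 fold change of the 10 genes was -1.52 in pXEN and -1.39 in XEN, against -0.03 and 0.00 over all genes tested. Both comparisons use the same ES libraries. Phf19 passed the filter on low counts only through ES, where it was high, so over ES it could only be called lower. Between pXEN and XEN none of the 10 genes passed the test with edgeR or with DESeq2, where edgeR called 0.918% of all genes higher and 3.63% lower, 4.55% together. None had an unadjusted p under 0.05 (0.0691 for Ezh1, the smallest, to 0.994 for Phf19), which 1652 of all genes had. In that comparison 2 genes, Ezh1 and Mtf2, were higher in every pXEN line than in every XEN line, as were 8.32% of all genes, and none was lower, as were 11.5% (19.8% in either direction). Bulk RNA cannot tell fewer cells of a type from less RNA per cell.

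**Figure D1:**
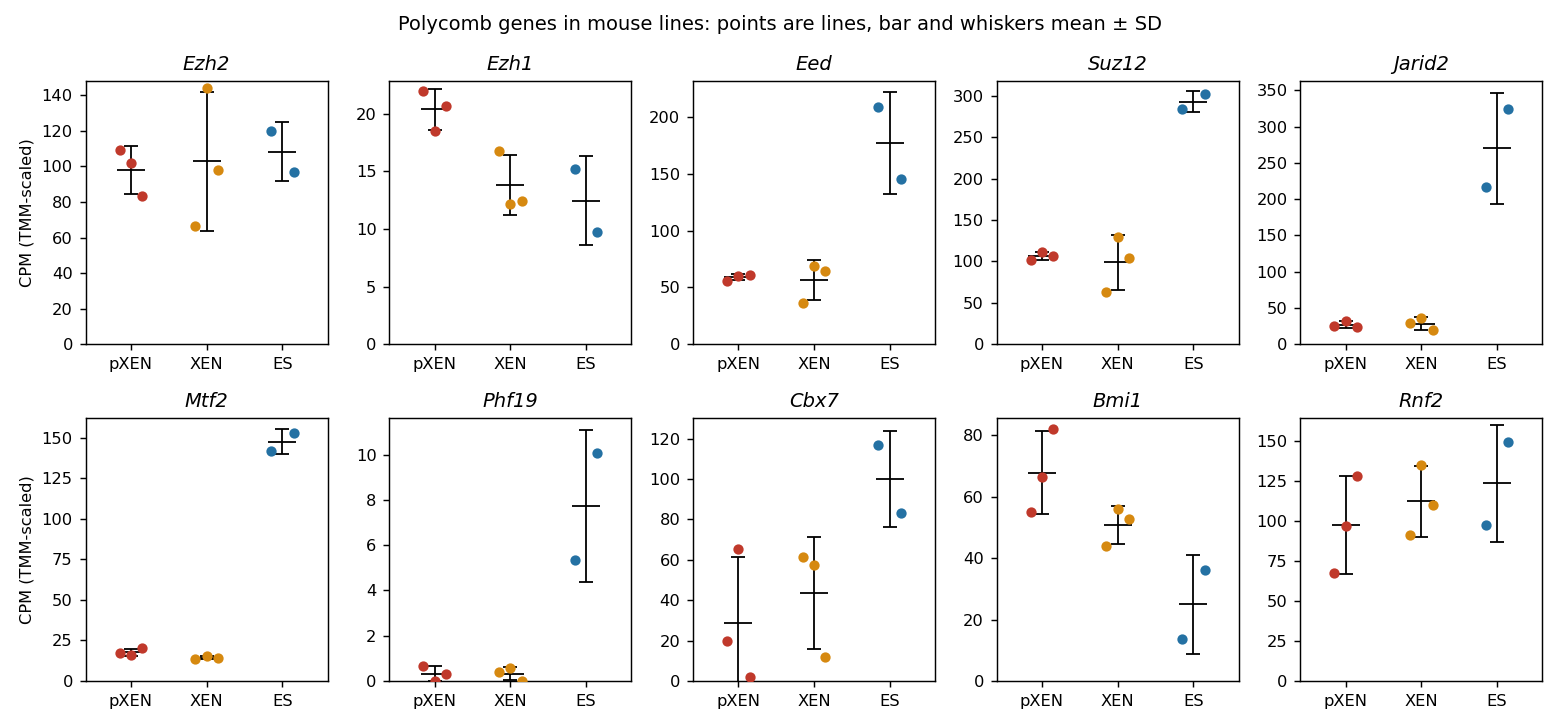
Level of each of the 10 genes in each mouse line (points; CPM on linear axes from 0), with the group mean and SD (bars and whiskers, cut at 0 where the SD is larger than the mean). Jarid2 and Mtf2 sit at 13.6 to 36.7 CPM in the pXEN and XEN lines and at 142 to 324 CPM in ES, Ezh2 and Rnf2 overlap between the groups, and Cbx7 runs from 1.72 to 65.2 CPM within pXEN.

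The genes sit on 8 chromosomes in GRCm38, and none shares exons with another gene on its strand in the GENCODE M21 annotation. Their promoters, 250 bases before to 50 bases after the RefSeq start (GRCm38.p6), were found for all 10 genes, with 12 windows in all. They were searched on both strands for E2F words, since Ezh2 and Eed are known targets of the E2F factors that drive the cell cycle. The words were TTTCCCGC, TTTCGCGC, TTTGCCGC and TTTGGCGC, which 2.26% of 32851 promoter windows of the table hold. They were found in 3 of the 12 windows, those of Ezh2, which overlapped between groups, and of Suz12 and Phf19, which were lower than in ES. These 3 windows are shown with the word in capitals, followed by the first Mtf2 window, in which none was found, each 5′ to 3′ along the gene's strand: Ezh2 at chr6:47594981-47595280 (minus strand), Suz12 at chr11:79992856-79993155 (plus), Phf19 at chr2:34913927-34914226 (minus) and Mtf2 at chr5:108065424-108065723 (plus).
Ezh2: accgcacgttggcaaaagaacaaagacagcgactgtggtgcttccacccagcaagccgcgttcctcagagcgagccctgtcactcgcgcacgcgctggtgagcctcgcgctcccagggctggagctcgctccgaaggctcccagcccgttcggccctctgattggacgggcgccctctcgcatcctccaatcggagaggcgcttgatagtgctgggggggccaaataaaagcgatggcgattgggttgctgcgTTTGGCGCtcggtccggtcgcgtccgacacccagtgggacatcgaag
Suz12: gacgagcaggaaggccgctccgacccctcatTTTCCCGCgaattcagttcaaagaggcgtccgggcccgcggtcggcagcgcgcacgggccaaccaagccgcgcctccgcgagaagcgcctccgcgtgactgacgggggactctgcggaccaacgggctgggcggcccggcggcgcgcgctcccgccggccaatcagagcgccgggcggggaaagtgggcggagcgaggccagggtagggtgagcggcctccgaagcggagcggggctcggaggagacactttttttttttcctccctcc
Phf19: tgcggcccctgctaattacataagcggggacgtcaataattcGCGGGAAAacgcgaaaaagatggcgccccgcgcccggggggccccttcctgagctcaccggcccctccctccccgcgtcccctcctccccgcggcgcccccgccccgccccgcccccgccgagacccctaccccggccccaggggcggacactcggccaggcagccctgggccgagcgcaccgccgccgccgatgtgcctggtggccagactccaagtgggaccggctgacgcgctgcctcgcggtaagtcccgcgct
Mtf2: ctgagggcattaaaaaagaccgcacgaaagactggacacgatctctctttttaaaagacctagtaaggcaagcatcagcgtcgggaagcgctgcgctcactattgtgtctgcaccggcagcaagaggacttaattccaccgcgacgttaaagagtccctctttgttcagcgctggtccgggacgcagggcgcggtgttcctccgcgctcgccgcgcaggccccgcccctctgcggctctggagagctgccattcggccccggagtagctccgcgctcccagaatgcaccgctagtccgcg

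In the Ezh2 window the word begins at base 4 after the start, in Suz12 at base -219 and in Phf19 at base -208, where it lies on the opposite strand, and none of them overlaps a CCAAT box or GC box. The GC box GGGCGG was found in 8 of the 12 windows, against 35.7% of all windows, and CCAAT in 7, against 37.4%. The ETS word CCGGAAGT and the octamer ATTTGCAT were in none of the 12, against 3.89% and 1.74% of all windows. The observed over expected CpG ratio ran from 0.71 to 1.09 in 11 windows and was 0.13 in the second Mtf2 window, against a median of 0.38 over all windows. These are matches of letters, not measured sites.

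The catalytic subunit of PRC2 and its partners differed in their values. Ezh2 (chr6:47530139-47595341, minus strand), the main methyltransferase of PRC2, stood at 109, 102 and 83.2 CPM in pXEN2, pXEN4 and pXEN6, at 66.6, 144 and 98 CPM in XEN1, XEN2 and XEN5, and at 120 and 96.7 CPM in ES2 and ES3. The 3 groups overlapped, with XEN1 the lowest line and XEN2 the highest. Its log2 fold change was -0.14 in pXEN over ES (SE 0.30, 95% interval -0.81 to 0.52, adjusted p = 0.748, edgeR) and -0.07 in XEN over ES (SE 0.30, interval -0.74 to 0.60, adjusted p = 0.872). A change of the size seen for its partners lies outside both intervals, as does a 2-fold change, while changes inside the intervals remain possible.

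Eed (chr7:89954654-89980983, minus strand), the WD40 protein that reads trimethylated H3, had 55.9, 60.4 and 60.8 CPM in the pXEN lines, 35.9, 68.4 and 64.2 CPM in the XEN lines, and 209 and 145 CPM in ES. It was 2.99-fold lower in pXEN than ES (log2 fold -1.58, SE 0.29, adjusted p = 0.00145, edgeR) and 3.14-fold lower in XEN (-1.65, SE 0.29, adjusted p = 0.00119). Each endoderm line was below each ES line, and the 3 pXEN lines were closer together than the XEN lines, of which XEN1 was the lowest. Suz12 (chr11:79993106-80034123, plus strand), the scaffold subunit, had 102, 111 and 107 CPM in the pXEN lines, 63.1, 129 and 104 CPM in the XEN lines, and 284 and 302 CPM in ES. It was 2.74-fold lower in pXEN than ES (-1.46, SE 0.27, adjusted p = 0.00177, edgeR) and 2.96-fold lower in XEN (-1.57, SE 0.27, adjusted p = 0.0012). The ranges of Suz12 and Eed in pXEN lay within those in XEN.

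Ezh1 (chr11:101191115-101226463, minus strand), the second methyltransferase, which is known for its expression in non-dividing cells, was the least abundant of the 4 core members per kilobase of exon in each mouse group. It had 22, 18.5 and 20.7 CPM in the pXEN lines, 16.8, 12.2 and 12.4 CPM in the XEN lines, and 15.2 and 9.74 CPM in ES. The pXEN lines lay above all XEN and ES lines, yet neither difference passed the test. The log2 fold change was 0.71 over ES (SE 0.33, 95% interval -0.01 to 1.43, adjusted p = 0.115, edgeR) and 0.57 over XEN (SE 0.28, interval -0.05 to 1.19, adjusted p = 0.389). In XEN over ES it was 0.14 (SE 0.33, adjusted p = 0.763). The other 2 proteins counted with the PRC2 core, the histone chaperones Rbbp4 and Rbbp7, did not pass in any comparison: Rbbp4 stood at 170 CPM in pXEN and 181 CPM in XEN against 243 CPM in ES, and Rbbp7 at 288 and 354 CPM against 324 CPM.

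The 3 accessory subunits among the 10 genes showed the larger folds. Jarid2 (chr13:44729474-44921643, plus strand), which helps to recruit PRC2 and is itself a PRC2 substrate, had 25, 32.5 and 23.5 CPM in the pXEN lines and 28.8, 36.7 and 19.3 CPM in the XEN lines, against 216 and 324 CPM in ES. It was 9.98-fold lower in pXEN than ES (log2 fold -3.32, SE 0.31, adjusted p = 1.88e-05, edgeR) and 9.54-fold lower in XEN (-3.25, SE 0.30, adjusted p = 2.35e-05). The highest endoderm line, XEN2, was far below the lower ES line. Mtf2 (chr5:108065674-108109004, plus strand), a Polycomb-like protein that binds unmethylated CpG DNA, had 17.4, 15.9 and 20.1 CPM in the pXEN lines, 13.6, 15.6 and 14.0 CPM in the XEN lines, and 142 and 153 CPM in ES. It was 8.26-fold lower in pXEN than ES (-3.05, SE 0.23, adjusted p = 5.71e-06, edgeR) and 10.2-fold lower in XEN (-3.35, SE 0.23, adjusted p = 3.99e-06). The lines of a group spanned at most 1.26-fold for Mtf2 and up to 1.9-fold for Jarid2.

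Phf19 (chr2:34893757-34914026, minus strand), a relative of Mtf2 that binds methylated lysine 36 of H3, was rare in ES and close to the limit of detection elsewhere. Its counts were 2, 0 and 1 in the pXEN lines, 1, 2 and 0 in the XEN lines, and 13 and 26 in ES2 and ES3, or 5.35 and 10.1 CPM. Over the group, 3 counts in pXEN and 39 in ES gave a ratio of 0.0383 (exact 95% counting interval 0.00757 to 0.121) with adjusted p = 0.00285 (edgeR), and 3 counts in XEN gave 0.0386 (0.00764 to 0.122) with adjusted p = 0.00306. With so few counts the fitted log2 fold change of -4.51 in pXEN moved to -5.42 without pXEN2, and that of -4.50 in XEN moved to -5.27 without XEN2 and -3.89 without XEN5, still below the threshold with adjusted p = 0.00596, 0.00537 and 0.0109. Such intervals cover counting error only. Only its ES counts let Phf19 pass the filter on low counts, so a call over ES could go in no other direction.

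**Figure D2:**
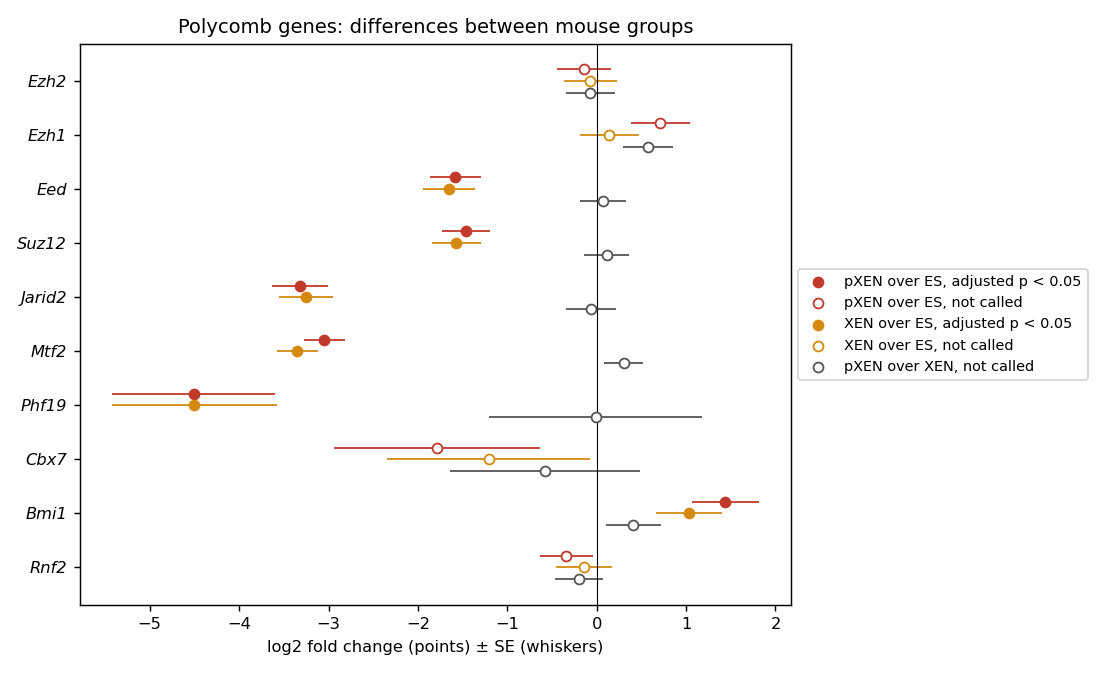
Fitted log2 fold change (points) and SE (whiskers) of each gene in pXEN over ES, XEN over ES and pXEN over XEN, with filled points for adjusted p under 0.05. Eed and Suz12 lie between -1.65 and -1.46 and Jarid2 and Mtf2 between -3.35 and -3.05 in the ES comparisons, and no point is filled in pXEN over XEN.

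The summed level of 24 genes of DNA replication and mitosis was 2840 to 3630 CPM in pXEN, which overlapped ES, 2360 to 3280 CPM in XEN, which did not, and 3580 to 4100 CPM in ES. Of these 24 genes 7 were called lower than ES in pXEN and 8 in XEN, none was called higher, and 17.8% of all genes were lower in each comparison. Of the 6 PRC2 core genes, Rbbp4 and Rbbp7 included, 2 were called lower in each. The part of the replication genes in the values of Eed and Suz12 was not tested. The fibroblast genes given above differed between XEN and ES, and their part in the XEN values was not tested.

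A ratio of counts within a line does not depend on how the libraries are scaled, and each was compared between groups by a two-sided exact permutation test on the log2 ratio. With 3 lines against 2 the smallest p that its 10 arrangements allow is 0.2, so no ratio could pass 0.05. The Eed to Ezh2 count ratio was 0.512, 0.591 and 0.731 in the pXEN lines and 0.538, 0.474 and 0.655 in the XEN lines, against 1.74 and 1.5 in ES. For Suz12 to Ezh2 it was 0.937 to 1.29 in pXEN and 0.896 to 1.06 in XEN, against 2.37 and 3.13 in ES. Jarid2 had 0.229 to 0.318 counts for each Ezh2 count in pXEN and 0.197 to 0.433 in XEN, against 1.8 and 3.35 in ES, and Mtf2 had 0.156 to 0.241 in pXEN and 0.108 to 0.205 in XEN, against 1.18 and 1.58 in ES. In each of these 4 ratios no endoderm line reached the lower ES line, and the exact p was 0.2 in pXEN and in XEN over ES. Between pXEN and XEN the 4 exact p-values were 0.3 to 1.0, where the smallest possible is 0.1. The Ezh2 to Ezh1 ratio was 4.96, 5.52 and 4.03 in the pXEN lines, 3.98, 11.8 and 7.89 in the XEN lines, and 7.89 and 9.92 in ES, so here pXEN did not overlap ES (exact p = 0.2) while XEN did (exact p = 1.0).

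**Figure D3:**
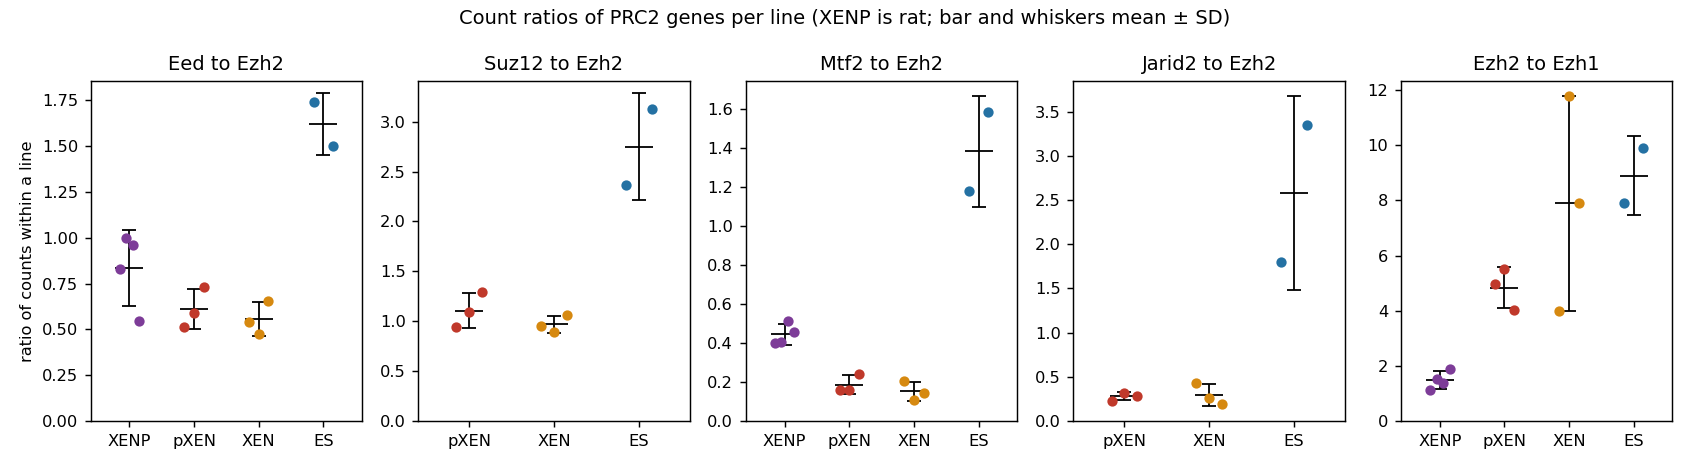
Ratio of the counts of 2 PRC2 genes within each line (points; linear axes from 0), with group mean and SD; XENP is rat, where Suz12 and Jarid2 are not shown. The ratios to Ezh2 reach at most 1.29 in the pXEN and XEN lines and lie at 1.18 to 3.35 in ES, and the Ezh2 to Ezh1 ratio is 1.13 to 1.89 in the rat lines.

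Set per kilobase of exon, so that genes can be compared with each other, Suz12 and Eed were the most abundant of the 10 messages in ES, at 59.4 ± 2.62 and 46.2 ± 11.8 CPM per kilobase (SD, n = 2). Mtf2 and Jarid2 stood at 25.9 ± 1.41 and 27.8 ± 7.85 CPM per kilobase in ES. In pXEN, Rnf2 and Suz12 led with 23.6 ± 7.30 and 21.6 ± 0.902 CPM per kilobase (n = 3), which did not differ beyond their spread, and Mtf2 and Jarid2 stood at 3.13 ± 0.37 and 2.78 ± 0.494. In XEN, Rnf2 and Suz12 led with 27.1 ± 5.32 and 20.0 ± 6.71 CPM per kilobase, and Jarid2 and Mtf2 stood at 2.91 ± 0.896 and 2.53 ± 0.18. Phf19 had the lowest mean of the 10 in every group, which in ES (1.53 ± 0.672) did not differ from Ezh1 (1.68 ± 0.516) beyond their spread. The places of Ezh2, Suz12 and Eed, among others, depended on the length used. Over the union of exons (6678 bases) Ezh2 had 14.7 ± 2.01 CPM per kilobase in pXEN, the fifth level. Over its longest annotated transcript (2787 bases) it had 35.3 there, the first level. In XEN its 15.4 ± 5.84, the third level, became 37.0 and the first. By longest transcript Suz12 had rank 4 in pXEN (24.4) and XEN (22.6). In ES Eed (85.5) then stood above Suz12 (67.1).

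Among the PRC1 genes, Rnf2 (chr1:151458004-151500955, minus strand), the catalytic ubiquitin ligase, was at 67.1, 96.8 and 128 CPM in the pXEN lines, 91.2, 135 and 110 CPM in the XEN lines, and 97.5 and 149 CPM in ES. The groups overlapped, with log2 fold changes over ES of -0.34 in pXEN (SE 0.30, 95% interval -1.01 to 0.33, adjusted p = 0.407, edgeR) and -0.14 in XEN (SE 0.31, interval -0.81 to 0.53, adjusted p = 0.745). Bmi1 (chr2:18677018-18686629, plus strand), a PCGF partner of Rnf2, had 55.0, 66.6 and 82.1 CPM in the pXEN lines, 44.0, 55.9 and 52.8 CPM in the XEN lines, and 13.6 and 36.2 CPM in ES. It rose 2.72-fold over ES in pXEN (log2 value 1.44, SE 0.37, adjusted p = 0.0109, edgeR) and 2.04-fold in XEN (1.03, SE 0.37, adjusted p = 0.0464), and no endoderm line fell within the range of ES. The 2 ES lines differed 2.66-fold from each other, and the size rested on which of them was used. Without ES2 the log2 fold change was 0.91 in pXEN (adjusted p = 0.0897) and 0.50 in XEN (adjusted p = 0.329). Without ES3 it was 2.33 (adjusted p = 0.00269) and 1.91 (adjusted p = 0.00736). Within lines the Bmi1 to Rnf2 count ratio was 0.643 to 0.819 in pXEN and 0.414 to 0.483 in XEN, against 0.139 and 0.243 in ES, with no overlap between the 3 groups. The XEN call of Bmi1 was also lost without XEN1, XEN2 or XEN5 (adjusted p = 0.0594, 0.0886 and 0.0934), and with other scalings.

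Cbx7 (chr15:79915807-79971119, minus strand), the Cbx subunit that ES cells are known to use most, was the gene that varied most between lines of a group. It had 19.7, 65.2 and 1.72 CPM in pXEN2, pXEN4 and pXEN6, 61.6, 57.6 and 11.6 CPM in XEN1, XEN2 and XEN5, and 117 and 83.4 CPM in ES2 and ES3. Every endoderm line was below both ES lines, which was true of 32.6% of all genes in pXEN and 31.7% in XEN, but the highest pXEN line had 37.9 times the level of the lowest and the highest XEN line 5.31 times. The differences did not pass the test (log2 fold change -1.79, SE 1.15, 95% interval -4.54 to 0.96, adjusted p = 0.272 in pXEN, and -1.21, SE 1.14, interval -3.94 to 1.52, adjusted p = 0.442 in XEN, edgeR). Without pXEN4 the pXEN value was -3.24 (adjusted p = 0.098). The low lines, pXEN6 and XEN5, are a female and a male line, and what set them apart was not tested.

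Other Polycomb genes, from lists that follow the complexes, differed in both directions. Of 8 PRC2 accessory genes tested, Jarid2, Mtf2 and Phf19 included, 4 were lower and 2 higher than ES, both in pXEN and in XEN. Aebp2 and Lcorl passed in neither. Among all genes tested 17.8% were lower in each, with 18.2% higher in pXEN and 20.7% in XEN. Beside the 3 described, E130012A19Rik (Epop, an elongin-binding PRC2 subunit) was lower, at 176 ± 30.2 CPM in pXEN and 173 ± 45.3 CPM in XEN against 460 ± 40.6 CPM in ES (log2 fold change -1.38 and -1.41, adjusted p = 0.00159 and 0.00144, edgeR). Lcor, whose locus also encodes a PRC2 partner, was higher, at 24.7 ± 11.1 CPM in pXEN and 31.8 ± 9.64 CPM in XEN against 6.83 ± 1.39 CPM in ES (1.85 and 2.21, adjusted p = 0.00737 and 0.00301, edgeR). The pXEN call was lost without ES3 (adjusted p = 0.0689). Phf1, the third Polycomb-like protein beside Mtf2 and Phf19, was at 10.0 ± 5.17 CPM in pXEN and 14.5 ± 2.40 CPM in XEN against 3.58 ± 0.996 CPM in ES (1.47 and 2.00, adjusted p = 0.0398 and 0.00924). Its pXEN call was lost without pXEN4, ES2 or ES3 (adjusted p up to 0.21) and its XEN call without ES2 (adjusted p = 0.0814).

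Of 13 canonical PRC1 genes tested, 3 were higher and 2 lower than ES in pXEN. In XEN 4 were higher and 3 lower. The shares of all genes higher and lower were 18.2% and 17.8% in pXEN and 20.7% and 17.8% in XEN. Phc1, a polyhomeotic subunit that can chain PRC1 into larger assemblies, was lower, at 11.7 ± 2.79 CPM in pXEN and 11.8 ± 3.10 CPM in XEN against 98.2 ± 19.9 CPM in ES (log2 fold change -3.06 and -3.04, adjusted p = 3.6e-05 and 4.33e-05, edgeR). The Cbx genes went in different directions. Cbx8 rose to 12.8 ± 3.88 CPM in pXEN and 13.5 ± 3.98 CPM in XEN against 1.59 ± 0.506 CPM in ES (2.97 and 3.03, adjusted p = 0.00121 and 0.00113, edgeR). Its ES level rests on 3 counts in ES2 and 5 in ES3, so the size of the rise is poorly measured. Cbx6 was lower, at 9.51 ± 7.60 CPM in pXEN and 15.5 ± 7.78 CPM in XEN against 50.8 ± 0.229 CPM in ES (-2.41 and -1.71, adjusted p = 0.0127 and 0.047, edgeR). Its pXEN call was lost without ES2 or ES3 (adjusted p up to 0.0609) and its pXEN value was -3.25 without pXEN6. Its XEN call was lost without XEN1, XEN2, ES2 or ES3, without the filter on low counts and with sex as a covariate. In XEN, Phc3 was higher (0.88, adjusted p = 0.0378) and Cbx2 lower (-1.64, adjusted p = 0.0458). Each call was lost without ES2 or ES3 (adjusted p up to 0.179 for Phc3 and 0.311 for Cbx2). Phc3 lost it also without XEN1, with DESeq2, with upper-quartile scaling and with only the 2 groups compared. Cbx2 lost it also without XEN2 or XEN5, with DESeq2 and with sex as a covariate.

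**Figure D4:**
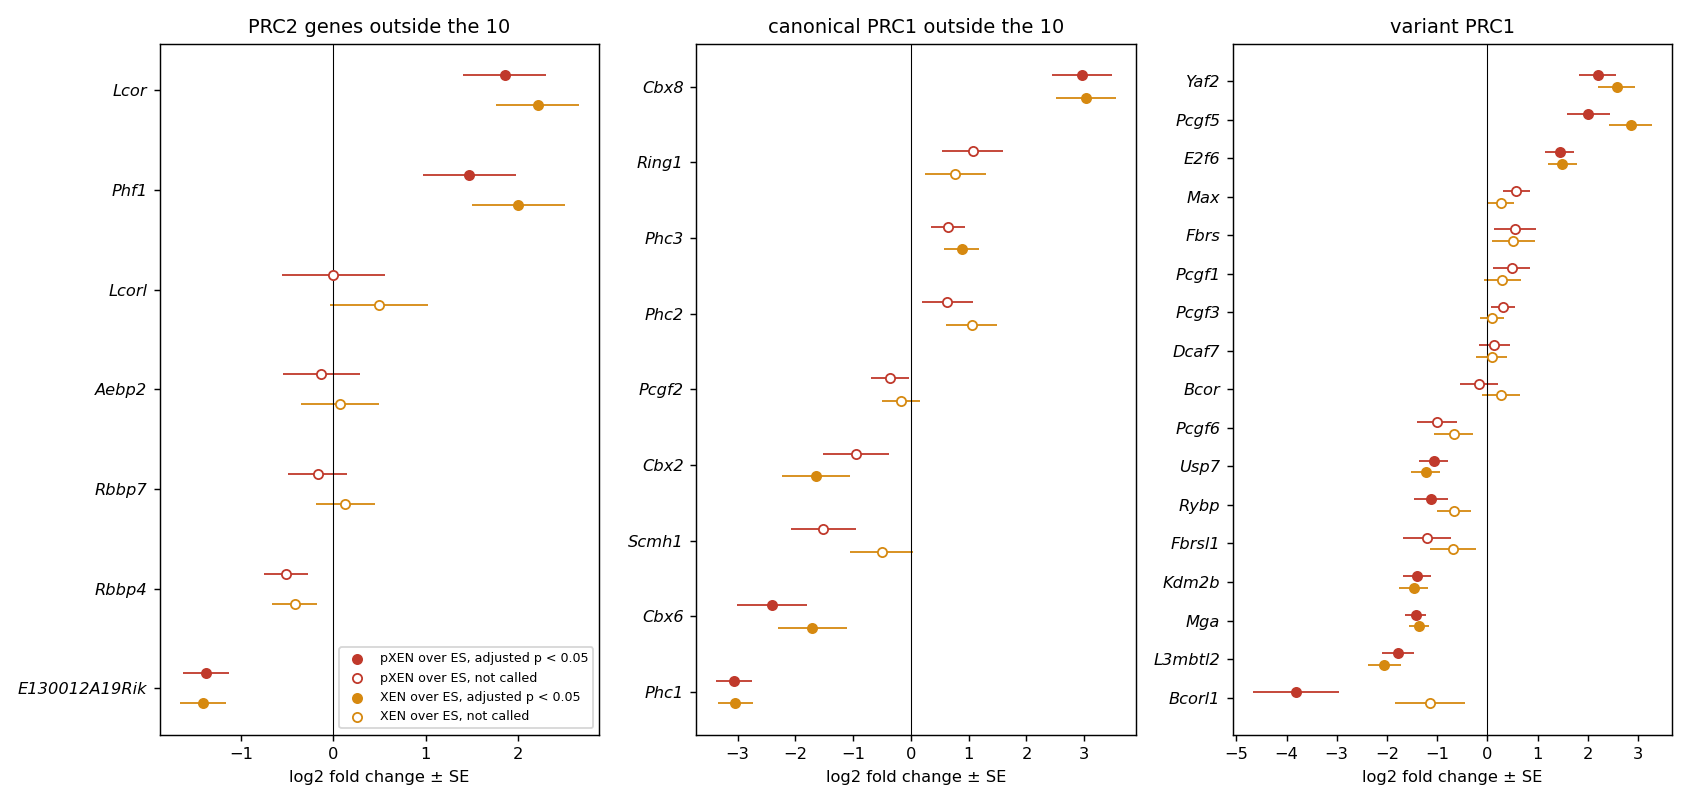
Fitted log2 fold change and SE of tested PRC2 and PRC1 genes outside the 10 in pXEN over ES and XEN over ES, filled where adjusted p is under 0.05. Phc1 lies at -3.06 and -3.04 and Cbx8 at 2.97 and 3.03, and among the variant PRC1 genes L3mbtl2 lies at -1.78 and -2.05 and Yaf2 at 2.20 and 2.58.

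Variant PRC1, which lacks Cbx subunits and does not need the H3 mark, had 3 of 17 tested genes higher and 6 lower than ES in pXEN. In XEN 3 were higher and 4 lower. Across the 10895 genes tested, calls over ES ran at 18.2% up and 17.8% down for pXEN. For XEN these rates were 20.7% and 17.8%. Pcgf5, the PCGF partner of one variant complex, was at 24.2 ± 4.65 CPM in pXEN and 43.6 ± 15.2 CPM in XEN against 5.94 ± 3.17 CPM in ES (log2 fold change 2.01 and 2.86, adjusted p = 0.00377 and 0.000541, edgeR). These were 2.71 and 3.55 without ES3. Yaf2, an Rnf2-binding subunit, was at 39.5 ± 5.80 CPM in pXEN and 51.3 ± 14.7 CPM in XEN against 8.54 ± 3.35 CPM in ES (2.20 and 2.58, adjusted p = 0.000876 and 0.00038, edgeR). Its relative Rybp was lower in pXEN, at 47.9 ± 10.9 CPM against 105 ± 2.83 CPM in ES (-1.13, adjusted p = 0.0245). This call was lost without pXEN4, pXEN6, ES2 or ES3 (up to 0.112). E2f6, a DNA-binding subunit of the Pcgf6 complex, was higher (1.44 and 1.49, adjusted p = 0.00287 and 0.00247, edgeR). Its partners in that complex, Mga (-1.43 and -1.37, adjusted p = 0.000286 and 0.000411) and L3mbtl2 (-1.78 and -2.05, adjusted p = 0.00153 and 0.000742), were lower. Kdm2b, which brings variant PRC1 to CpG islands, was at 13.9 ± 2.55 CPM in pXEN and 13.1 ± 0.78 CPM in XEN against 36.5 ± 3.65 CPM in ES (-1.40 and -1.47, adjusted p = 0.00267 and 0.00213). Usp7, a deubiquitinase found with variant PRC1, was at 179 ± 6.52 CPM in pXEN and 160 ± 59.5 CPM in XEN against 377 ± 85.6 CPM in ES (-1.07 and -1.23, adjusted p = 0.0127 and 0.00619). Both calls were lost without ES2 (adjusted p = 0.132 and 0.0748). Rybp, and Usp7 in pXEN, were named after their values were seen. No gene of the PRC2 or PRC1 lists passed the test between pXEN and XEN, where 4.55% of all genes did.

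The genes most like the 4 members with the widest range of group means were found by Pearson correlation of log2 CPM over the 8 mouse lines, among 10894 genes. For Mtf2 they included Tdrd12 (0.997) and 2410141K09Rik (0.997). For Jarid2 they were Gm13247 (0.993), Mga (0.991) and Radil (0.991), and for Phf19 Wasf1 (0.993), Gm10069 (0.991) and Notch4 (0.990). Such values were common: 436, 349 and 216 genes had a correlation over 0.95 with Mtf2, Jarid2 and Phf19. For Cbx7, which varied within the groups, only Tfdp2 (0.971), a partner of E2F factors, was over 0.95, followed by Hdgfrp2 (0.949) and Ptprk (0.945). Among the 10 genes themselves, Eed and Suz12 correlated at 0.98 and Jarid2 and Mtf2 at 0.97, and Bmi1 at -0.77 with Eed and with Mtf2. The 8 points share the same 2 ES libraries, and these are descriptions.

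In the rat XENP lines Rnf2 stood at 123 CPM in CX1 and 159, 162 and 148 CPM in MAX2, MAX3 and MAX8. Ezh2 had 56.3, 48.1, 48.7 and 62.5 CPM in CX1, MAX2, MAX3 and MAX8, and Ezh1 had 49.9, 31.4, 35.3 and 33.0 CPM. The Ezh2 to Ezh1 count ratio was thus 1.13, 1.53, 1.38 and 1.89, with CX1 the lowest line. Eed had 46.7, 48.1, 46.8 and 33.9 CPM and Mtf2 22.5, 19.4, 24.8 and 28.6 CPM. Bmi1 had 4, 13, 12 and 11 counts in these lines, Phf19 had 2, 1, 0 and 1 counts, and Cbx7 had 4 counts in CX1 and 0 in the MAX lines, where 0 counts allow up to 2.77, 2.86 and 2.68 CPM in MAX2, MAX3 and MAX8.

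XENP and pXEN cells shared culture conditions but not species, so their levels were described and not tested, as CPM over the 14386 symbols found in both species without the ribosomal RNA precursor Rn45s. On that scale Ezh2 was at 55.4 ± 7.08 in XENP (SD, n = 4) and 175 ± 22.5 in pXEN (n = 3), Eed at 45.0 ± 6.86 and 105 ± 5.57, and Bmi1 at 9.38 ± 4.15 and 121 ± 25.5. These 3 of the 8 genes were lower in XENP with no overlap between lines, and none was higher, where 22.3% of 11546 shared genes were lower and 27.4% higher. Rnf2 (152 ± 18.0 in XENP and 174 ± 55.5 in pXEN), Ezh1 (38.5 ± 8.77 and 36.5 ± 2.97), Mtf2 (24.5 ± 3.95 and 31.8 ± 3.86), Cbx7 and Phf19 overlapped. As ranks, Ezh2 stood at the 72.9 to 77.5 percentile of the shared genes in XENP and at 90.6 to 93.2 in pXEN, Bmi1 at 42.9 to 52.3 and at 85.4 to 90.4, and Mtf2 at 58.4 to 64.1 and at 65.0 to 68.3. In XENP 65.5% to 70.1% of reads mapped to several places and 1.76% to 3.04% to overlapping genes, against at most 9.65% and 0.124% in pXEN, and whether such reads were lost from these genes was not tested. Species, genome, annotation and read loss cannot be told apart here.

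**Figure D5:**
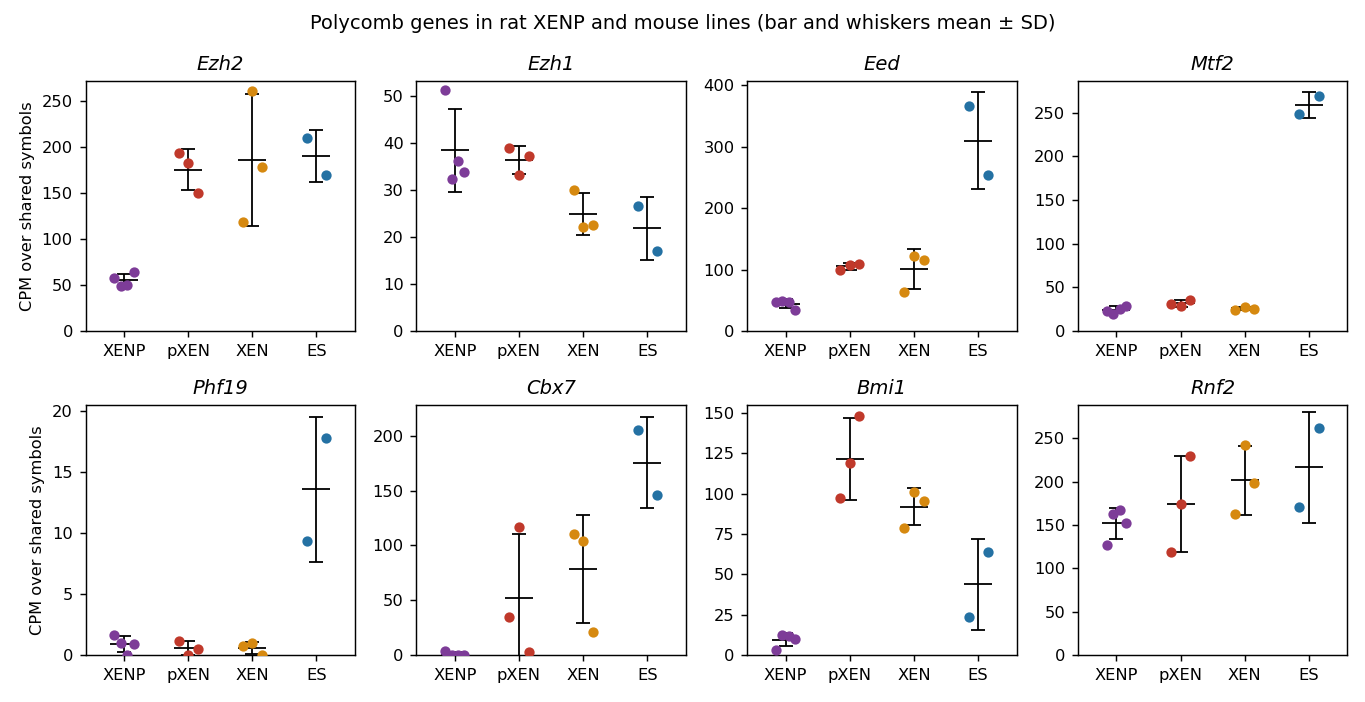
CPM over the symbols shared by mouse and rat for the 8 genes measured in both (points are lines, bars and whiskers mean and SD, cut at 0; linear axes from 0). Bmi1 lies at 3.32 to 12.3 in the rat XENP lines and at 97.2 to 148 in pXEN, and Mtf2 lies at 19.9 to 29.3 in XENP, 28.6 to 36.1 in pXEN and 248 to 269 in ES.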

How the data were processed

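RNA-seq counts of 8 mouse and 4 rat lines were used. Each line has a table of counts that the authors deposited, as whole reads per gene in unstranded, forward-strand and reverse-strand columns (the tables have no header, so this was read from their layout and values). Libraries were ribosomal RNA-depleted, strand-specific and paired-end, per the labels' protocols. CASAVA 1.8.2, Trimmomatic 0.33, STAR 2.5.1, DESeq2 and the builds mm10 and rn6 are named, without roles, in the submitters' processing notes; the gene models behind them are not stated there. Tests took the reverse-strand column, which held 98.9% to 99.3% of stranded counts. Read classes (unmapped, multimapping, no feature, ambiguous), 73.4% to 78.3% of mouse reads and 89.7% to 91.8% of rat reads, were left out. Rn45s, at 20.7% to 50.1% of mouse gene counts, stayed in the tests.

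The 8 mouse lines were fitted together with edgeR 4.0.16 (R 4.3.3): filterByExpr by group (minimum count 10), TMM, robust glmQLFit and glmQLFTest, threshold 0.05 after Benjamini-Hochberg adjustment over 10895 genes, which included all 10 members. A standard error is the absolute log2 fold change over the square root of F. The fit was tested on simulated data with 100 genes changed 2-fold and 100 changed 4-fold. At 2-fold it recovered 17 in pXEN over ES, 25 in XEN over ES and 18 in pXEN over XEN. At 4-fold it recovered 90, 87 and 94. Far fewer genes were changed in the simulated data than were called over ES in the real data (3914 in pXEN and 4188 in XEN). The adjusted threshold is stricter when fewer genes change, so the recovered numbers do not describe the ES comparisons. A gene that did not pass can still differ 2-fold where its interval includes such a change. For Ezh2 over ES the intervals, -0.81 to 0.52 in pXEN and -0.74 to 0.60 in XEN, leave out a 2-fold change. Rat levels are CPM without TMM and had no test. Coordinates and exon lengths are GENCODE M21 (GRCm38) and promoters RefSeq (GRCm38.p6). Alternatives were DESeq2 1.42.0, other scalings, no filter, Rn45s removed, unstranded counts, 2 groups at a time, sex as a covariate and each line left out. The members, lists and tests were chosen with earlier results of these data known. From each other list up to 3 called genes per direction with the smallest p were named, or all where at most 5 were called; a few genes that this rule names are counted but not reported here.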

Additional observations from a re-analysis of the deposited data

Results flagged for a closer look

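In rat XENP, Eed stood at 33.9 CPM in MAX8, apart from 46.7, 48.1 and 46.8 CPM in CX1, MAX2 and MAX3, a gap of 0.901 of the range of the 4 lines where 0.829 is the critical value. It rests on 38 counts, with an exact 95% counting interval of 24.0 to 46.6 CPM that overlaps those of the other lines (34.6 to 61.8 CPM in MAX3). Cbx7 stood at 3.22 CPM in CX1, 4 counts, where the 3 MAX lines had 0 counts, which allow up to 2.68 to 2.86 CPM. For Cbx7 the gap is the whole range because the other 3 lines are tied at 0, so any count in CX1 would have given it and the chance rate of such gaps does not apply. The lines of 8 genes were examined in this way, and in values that are not tied chance alone gives such a gap in about 1 of 20 groups.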

How the results depend on the processing

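Eed, Suz12, Jarid2, Mtf2 and Phf19 were lower than ES in pXEN and in XEN, with adjusted p of at most 0.046, in all 13 alternatives of each comparison. Leaving out 1 line at a time gave 5 to 6 of the 10 genes called in pXEN over ES and in XEN over ES, and 0 in pXEN over XEN. Of all genes it called 2543 to 3579, against 3914, in pXEN over ES. It called 2474 to 3992, against 4188, in XEN over ES and 322 to 448, against 496, in pXEN over XEN. The counts of all genes were below the main ones by over 1.5 times without ES2 (2543 in pXEN, 2474 in XEN), without ES3 (2725 in XEN) and, for pXEN over XEN, without pXEN2 (322). With 1 ES line left, that line is assumed to vary like the other groups. The call of Bmi1 in XEN was also lost with DESeq2 size factors (adjusted p = 0.0527), upper-quartile scaling (0.0678) and only the 2 groups compared (0.0617). Upper-quartile scaling moved the median log2 fold change of all genes to -0.13 in pXEN and -0.11 in XEN over ES. Without the filter it was -0.15 in pXEN.

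Some values changed sign when a line was left out, none of them past the threshold. Over ES, the range over lines left out was -0.28 (without ES3) to 0.03 (without ES2) for Ezh2 in pXEN and -0.39 (XEN2) to 0.16 (XEN1) in XEN, where it was 0.10 without ES2. For Rnf2 it was -0.61 (ES2) to 0.01 (ES3) in pXEN and -0.41 (ES2) to 0.20 (ES3) in XEN, and for Ezh1 in XEN -0.15 (ES3) to 0.50 (ES2). In pXEN over XEN it was -0.32 (XEN1) to 0.25 (XEN2) for Ezh2, -0.18 (XEN1) to 0.23 (XEN2) for Eed and -0.14 (XEN1) to 0.35 (XEN2) for Suz12. It was -0.28 (XEN5) to 0.17 (XEN2) for Jarid2, -0.91 (pXEN2) to 0.76 (XEN2) for Phf19 and -0.45 (pXEN6) to 0.00 (pXEN2) for Rnf2. With sex as a covariate Ezh2 was 0.13 there. The cause was not tested. Cbx7 in pXEN over XEN was -2.03 without pXEN4, against -0.58. Of the 399 values of the 10 genes under alternatives, 372 kept direction and side of the threshold. The other Polycomb, opposing and target genes had 64 calls over ES. Of these, 35 were kept in every alternative tested and 29 were lost in at least 1. No paired analysis was possible because the groups share only 1 replicate number, which is part of a line's name. Phf19 in all groups but ES, Cbx8 in ES, and Cbx7 and Bmi1 in rat, are limited by depth. Wherever the filter on low counts was used, Phf19 was tested only through its ES counts.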

Other observations

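Enzymes that work against Polycomb were also measured. Of 12 tested, 4 were lower and 1 higher in pXEN than in ES, and 5 were lower in XEN (edgeR, adjusted p under 0.05). None passed between pXEN and XEN, where 4.55% of all genes did. The shares of all genes lower and higher than ES were 17.8% and 18.2% in pXEN and 17.8% and 20.7% in XEN. Nsd1, which methylates lysine 36 of H3, stood at 55.5 ± 24.6 CPM in pXEN and 29.1 ± 5.81 CPM in XEN against 161 ± 10.9 CPM in ES (log2 fold change -1.53 and -2.47, adjusted p = 0.00425 and 0.000314, edgeR). The calls of Kmt2a, Kmt2b and Kmt2c in pXEN and of Kmt2a, Setd2 and Kdm6a in XEN were each lost when an ES line was left out. The same shares apply to the PR-DUB complex, which removes ubiquitin from H2A. Of its 10 tested genes 3 were lower in pXEN, and 2 were lower and 1 higher in XEN. Hcfc1, a subunit of it, stood at 164 ± 2.52 CPM in pXEN and 152 ± 24.7 CPM in XEN against 337 ± 86.6 CPM in ES (-1.04 and -1.15, adjusted p = 0.00462 and 0.0027), with the pXEN call lost without ES3 (adjusted p = 0.0753). Asxl1 was lower in pXEN (-1.40, adjusted p = 0.00213). Asxl2 was lower in both (-0.76 and -0.74) and Foxk2 higher in XEN (0.91), calls that were lost without either ES line.

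Of 50 genes known to carry H3K27 methylation in ES cells, 13 had counts enough to be tested, and a gene could pass that filter through the group where it was high. Of these, 6 were higher and 3 lower than ES in pXEN. In XEN 5 were higher and 2 lower. The shares of all genes higher and lower were 18.2% and 17.8% in pXEN and 20.7% and 17.8% in XEN. Gata4, Gata6, Sox17 and Foxa2, which are also on the endoderm marker list, were higher in both, with Gata4 at 210 ± 5.34 CPM in pXEN and 208 ± 62 CPM in XEN against 0.801 ± 0.0304 CPM in ES. The limb and heart factor Tbx3 was lower, at 14.8 ± 5.65 CPM in pXEN and 13.9 ± 1.96 CPM in XEN against 37.7 ± 6.78 CPM in ES (-1.35 and -1.43, adjusted p = 0.00907 and 0.00672, edgeR). Both calls were lost without ES3. Isl1 had 0 counts in pXEN and 3 in XEN against 27 in ES. The 37 listed genes that were not tested reached at most 8.64 CPM in any mouse line. Among them 12 had a count in pXEN, 14 in XEN and 21 in ES.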
